A study of Mus musculus with 16 samples.

Results

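Binding of Oct4defSox2 to the genome was compared between day 1 and day 5 of reprogramming, and the day 1 sites were divided by whether they were still bound at day 5. Oct4defSox2 is mouse Oct4 with the substitutions I21Y and D29R, built so that it can no longer form the DNA-dependent dimer with Sox2. The host cells, OG2-MEFs, were embryonic fibroblasts of the mouse with a GFP reporter of the Oct4 gene. They were infected with pMX retroviruses for Sox2, Klf4 and the mutant (Oct4defSox2-SK) and cultured in the chemically defined medium iCD1, and days were counted from the change into that medium. The wild-type comparison was Oct4-SK, the same cells given Oct4 in place of the mutant, and Oct4 S151M, an Oct4 with a substitution in the POU domain, was profiled at day 1 as a further comparison. Every group used here carried the Sox2 and Klf4 viruses. The cells were not sorted. ChIP-seq, in which DNA bound by a protein is recovered with an antibody and sequenced, was done once for each group, so there were 2 Oct4defSox2 libraries among 16 samples and no replicates.

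A site was a peak summit, the base of highest signal in a called peak. On chromosomes 1 to 19, X and Y, 31060 sites were listed at day 1 and 1034 at day 5, out of 227116 summits in the 13 lists of the series. A day 1 site was called kept when a day 5 summit lay within 100 bp and lost when none did, and a day 5 site with no day 1 summit within 100 bp was called new. This gave 729 kept sites (2.35% of those at day 1), 30331 lost and 305 new sites. POU motifs, described below, were at 53.6% of kept, 22.02% of lost and 15.7% of new sites, and at 5.21%, 5.47% and 5.25% of windows 2 kb away. Each summit carries a score, the −log10 of its peak-calling p-value within its own library. The score depends on read depth, which was not used here, so a lost site is one without a called summit. Loss of binding, fewer cells that still make the factor and lower sensitivity of the day 5 library cannot be told apart.

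Oct4 is a POU factor, whose 2 DNA-binding domains can be arranged on DNA in several ways. With Sox2 it reads the composite SoxOct element, in which a Sox site stands next to an octamer and which is typical of enhancers in pluripotent cells. A pair of POU proteins without Sox2 reads the palindromic MORE element, made of a pair of inverted POU sites, or MORE+1, in which the pair stands 1 base further apart. The mutant was designed to lose the first mode, and the comparison asks which of its early sites lasted.

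The sequences that carry the result are those of the strongest kept sites. They are shown first, read from the reference genome mm10 (GRCm38), plus strand, 5′ to 3′, with the best MORE match in capitals and 12 bases to each side. MORE was searched on both strands as ATGNAT followed by its reverse complement, with up to 1 mismatch.
Intron of Sik3, chr9:46083814-46083849: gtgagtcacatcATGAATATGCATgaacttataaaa
Promoter of Rnf169, chr7:99980501-99980536: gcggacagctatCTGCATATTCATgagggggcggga
Promoter of Gabarapl2, chr8:111939898-111939933: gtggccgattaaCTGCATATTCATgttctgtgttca
Intron of Sort1, chr3:108304752-108304787: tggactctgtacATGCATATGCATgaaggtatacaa
Promoter of Crlf2, chr5:109558432-109558467: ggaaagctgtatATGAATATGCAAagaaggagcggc
Intergenic, nearest start Nr2f2, chr7:69781227-69781262: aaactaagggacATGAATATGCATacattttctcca
Intron of Magi2, chr5:20264399-20264434: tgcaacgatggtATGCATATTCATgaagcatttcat
Intron of Macrod1, chr19:7144091-7144126: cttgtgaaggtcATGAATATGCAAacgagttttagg
Intron of Lemd1, chr1:132222363-132222398: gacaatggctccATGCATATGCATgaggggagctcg
These are 9 of the 10 named kept sites, those with the highest mean of the day 1 and day 5 scores. The matches at Sik3, Sort1, Nr2f2, Magi2 and Lemd1 were exact, and the other 4 had 1 mismatch. The matches at Sort1 and Crlf2 began 81 and 73 bp before the summit, and the rest began within 13 bp of it. Several of the 12-base matches were identical, those at Rnf169 and Gabarapl2, at Crlf2 and Macrod1, at Sik3 and Nr2f2, and at Sort1 and Lemd1. A match to TGACTCA, the site of AP-1 factors, stood just upstream of MORE at Sik3.

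Few day 1 sites were kept. The share was 2.35% (729 of 31060), with a 95% interval of 2.18 to 2.52%, and it was bounded by the much shorter day 5 list. With both lists cut to their strongest 1034 summits it was 36.4% (33.5 to 39.3%). Seen from day 5, 70.5% of the sites (729 of 1034, interval 67.7 to 73.2%) were already present at day 1 and 29.5% were new. Intervals given here are Wilson intervals for shares, Newcombe intervals for differences and, for differences between groups matched on score, normal intervals. They cover counting error among sites only, treat sites as independent and compare these libraries rather than the conditions. The summits of a kept site lay close together on the 2 days, with a median offset of 20 bp. Just inside the sharing distance, 19 day 1 sites had a day 5 summit 81 to 100 bp away, with a median day 1 score of 16.4. Just outside it, 7 sites had one 101 to 120 bp away, with a median score of 18.2.

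Retention was steeply related to strength at day 1. Kept sites had a median day 1 score of 59.6 (quartiles 29.8 and 113, range 5.48 to 664), and lost sites had a median of 11.1 (quartiles 7.87 and 17.95, range 4.00 to 222). Of the 100 strongest day 1 sites, 92 were kept (92.0%, interval 85.0 to 95.9%). The share was 53.2% among the strongest 500, 37.1% among the strongest 1000 and 11.9% among the strongest 5000. In the weakest decile of day 1 sites 5 of 3071 were kept (0.163%), in the ninth 89 of 3147 (2.83%) and in the strongest 529 of 3151 (16.8%). Day 5 scores had a similar split, with a median of 11.9 at kept sites and 6.01 at new sites. Across the 729 kept sites Spearman's rho between day 1 and day 5 scores was 0.60. Because strength and retention went together, the main differences between kept and lost sites are also given with lost sites reweighted to the day 1 score deciles of the kept sites, here called strength-matched.

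**Figure D1:**
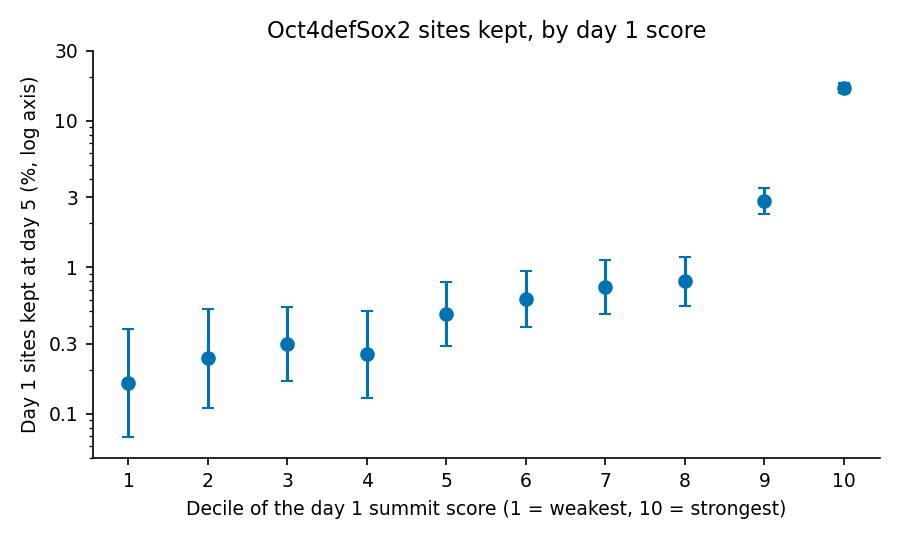
Share of day 1 Oct4defSox2 sites kept at day 5 (y axis, percent, log scale) in each decile of the day 1 summit score (x axis). Points are shares and bars are 95% Wilson intervals; the share was under 1% in the 8 weaker deciles, 2.83% in the ninth and 16.8% in the strongest.

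Of the POU motif classes searched, sites with a homodimer motif were kept most often. MORE or MORE+1 (up to 1 mismatch each, within 100 bp of the summit) was found at 306 of 729 kept sites (42.0%, interval 38.4 to 45.6%), against 3112 of 30331 lost sites (10.3%, interval 9.92 to 10.6%). Windows 2 kb to either side held it in 3.29% and 3.38% of cases. The difference between kept and lost was 31.7 points (interval 28.2 to 35.3), and 24.3 points (20.5 to 28.0) when strength-matched. It was 19.96 points (15.5 to 24.4) with the strongest decile itself split into 10 bands, a finer matching chosen after seeing the data. By spacing, MORE was at 29.2% of kept and 6.84% of lost sites, and MORE+1 at 13.7% and 3.77%. The strength-matched differences were 16.9 points (13.5 to 20.4) and 7.50 points (4.90 to 10.1). Without the copies of a repeated sequence described below, MORE+1 was at 6.55% of kept and 3.15% of lost sites, and the strength-matched difference was 1.95 points (−0.02 to 3.92), while that of MORE was 19.2 points (15.6 to 22.9).

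For SoxOct, the composite with Sox2, the difference between kept and lost sites depended on whether their scores were matched. It was searched as CNTTGT, 1 free base and then ATGCAAAT, with up to 2 mismatches, so that every SoxOct match holds an exact or partial octamer. It was found at 51 kept sites (7.00%) and 1845 lost sites (6.08%), both above the flanking windows (0.549% and 0.780%). The difference of 0.91 points had an interval of −0.74 to 3.02. With at most 1 mismatch it was 1.15 points (0.30 to 2.50), and in windows of 50 bp to each side 1.73 points (0.21 to 3.72). Strength-matched, SoxOct was less common at kept sites, by −5.67 points (−7.77 to −3.57), and by −9.38 points (−12.5 to −6.27) with the finer bands. It was −10.4 points (−14.5 to −6.03) with the lists cut to their strongest 1034 summits. The octamer ATGCAAAT, whatever other motif the window held, was at 12.2% of kept and 8.75% of lost sites, and the strength-matched difference was −0.31 points (−2.87 to 2.25).

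Counted the other way, by motif, day 1 sites with MORE or MORE+1 and no SoxOct were kept in 296 of 3268 cases (9.06%, interval 8.12 to 10.1%). Sites with SoxOct and neither MORE form were kept in 41 of 1746 cases (2.35%, interval 1.74 to 3.17%), the same as the 2.35% of all sites. The difference was 6.71 points (5.46 to 7.91). The median day 1 scores of the MORE and SoxOct sites were close, 14.6 and 15.5. In the strongest decile 240 of 739 MORE sites (32.5%) and 36 of 395 SoxOct sites (9.11%) were kept, and in the other 9 deciles 2.21% and 0.370%. At the very top, among scores from 103 upwards, 116 of 146 MORE sites were kept (79.5%, interval 72.2 to 85.2%), and 17 of 43 SoxOct sites (39.5%, interval 26.4 to 54.4%). Sites with an octamer alone were kept in 2.31% of 1907 cases and sites with no POU motif in 1.41% of 23989.

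**Figure D2:**
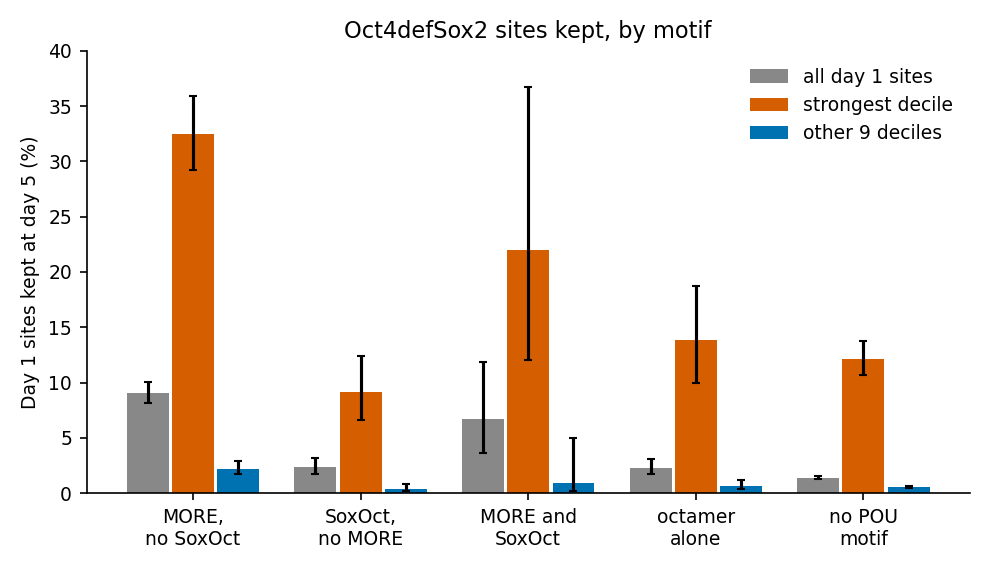
Share of day 1 Oct4defSox2 sites kept at day 5 (y axis, percent) by the POU motif near the summit (x axis), for all sites, the strongest decile and the other 9 deciles of day 1 score. Bars are shares with 95% Wilson intervals; in the strongest decile 32.5% of MORE sites and 9.11% of SoxOct sites were kept.

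For MORE, retention was higher with fewer mismatches, and SoxOct shares over all sites had the same order with overlapping intervals. Sites with an exact MORE were kept in 101 of 579 cases (17.4%, interval 14.6 to 20.7%) and sites with 1 mismatch in 112 of 1708 (6.56%, interval 5.48 to 7.83%). In the strongest decile these shares were 44.4% and 25.1%. For MORE+1 the exact form was rare, with 8 of 102 sites kept (7.84%), beside 92 of 1140 (8.07%) with 1 mismatch. Of those 92, 55 carried a repeated sequence described below, and elsewhere MORE+1 with 1 mismatch was kept in 37 of 912 cases (4.06%, interval 2.96 to 5.54%) and the exact form in 7 of 82 (8.54%, interval 4.20 to 16.6%). For SoxOct, 2 of 29 exact sites (6.90%, interval 1.91 to 21.96%), 14 of 303 sites with 1 mismatch (4.62%, interval 2.77 to 7.61%) and 35 of 1564 sites with 2 mismatches (2.24%, interval 1.61 to 3.10%) were kept. In the strongest decile the order did not hold, with 2 of 12 exact sites (16.7%), 18.1% with 1 mismatch and 8.52% with 2 kept. Among exact MORE sites the free base of each arm also varied. Sites with adenine in one arm and cytosine in the other, as at Sik3, Nr2f2 and Magi2, were kept in 67 of 290 cases (23.1%, interval 18.6 to 28.3%). Sites with adenine in both arms were kept in 18 of 129 (13.95%, interval 9.01 to 20.98%) and with cytosine in both, as at Sort1 and Lemd1, in 12 of 83 (14.5%, interval 8.47 to 23.6%). These intervals overlap. Sites with cytosine in one arm and thymine in the other were kept in 2 of 38 cases (5.26%, interval 1.46 to 17.3%), below the interval of the adenine and cytosine sites, and each other combination had at most 12 sites.

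MORE was also common where day 5 binding was strongest. Of the 50 kept sites with the highest day 5 scores, 35 had MORE or MORE+1 (70.0%, interval 56.2 to 80.9%), and of the 200 highest 113 did (56.5%). The median day 5 score was 13.6 at kept sites with either motif and 11.01 at those without, and their median day 1 scores were 80.01 and 49.9.

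**Figure D3:**
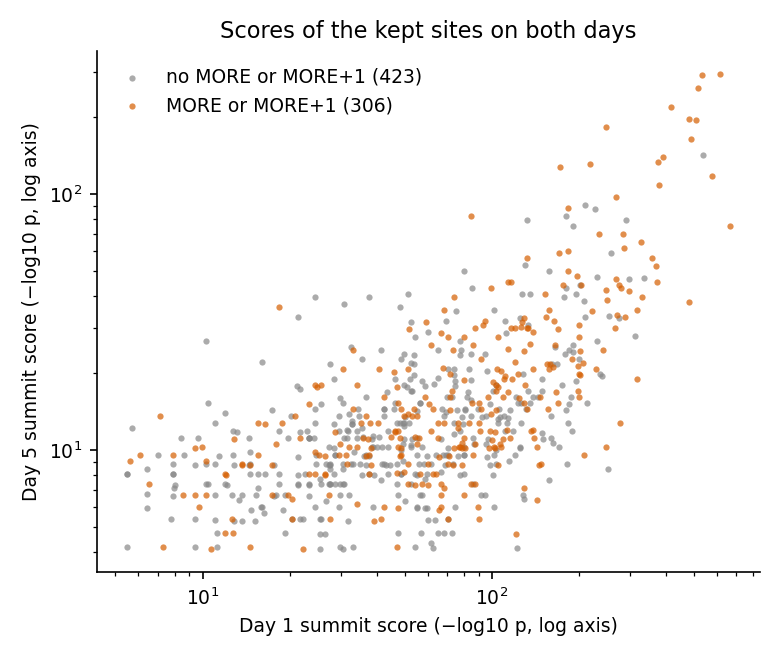
Day 1 score (x axis) and day 5 score (y axis), both −log10 p on log axes, of the 729 kept Oct4defSox2 sites. Each point is a site, coloured by whether MORE or MORE+1 lay within 100 bp of the day 1 summit; most of the points with the highest scores on both days are among the 306 with a motif.

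A group of kept sites shared a long stretch of sequence. The 16 bases most often repeated among kept windows occurred exactly in 48 of them, and 273 day 1 sites carried them with up to 2 mismatches. This sequence and the comparisons made with it were chosen after the sites had been seen. It has 943 exact copies on these chromosomes, and the summit base was soft-masked as repetitive in the genome at 220 of the 273 sites. A MORE+1 match was present in 248 of the 273 windows. It is in capitals below in 3 kept copies from different chromosomes, each with 1 mismatch. To the right of it lies AACCACA, the site of RUNX factors, matched in 196 windows. The shared stretch reaches well past the motif. The most common base at each position over the 57 kept copies is given first.
Consensus: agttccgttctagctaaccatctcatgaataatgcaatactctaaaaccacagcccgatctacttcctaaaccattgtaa
Intergenic, nearest start Tnfaip3, minus strand, chr10:19000097-19000176: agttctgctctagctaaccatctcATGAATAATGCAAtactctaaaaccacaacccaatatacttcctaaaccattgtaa
Intron of Dglucy, plus strand, chr12:100817662-100817741: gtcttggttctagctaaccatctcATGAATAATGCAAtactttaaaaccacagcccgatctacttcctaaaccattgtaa
Intergenic, nearest start Slitrk1, minus strand, chr14:108678822-108678901: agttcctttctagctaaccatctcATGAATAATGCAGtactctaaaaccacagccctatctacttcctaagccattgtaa
Of the 273 sites, 57 were kept (20.9%, interval 16.5 to 26.1%), on 18 chromosomes. Other sites with MORE+1 were kept in 44 of 994 cases (4.43%, interval 3.31 to 5.89%). In the strongest decile the shares were 43.4% (46 of 106) and 21.6% (36 of 167). The copies made up 56 of the 100 kept sites with MORE+1. They also held 51 of the 97 kept sites with a RUNX match. RUNX was at 13.3% of kept and 7.64% of lost sites in all, and at 6.85% and 7.21% once the copies were left out. Oct4 in Oct4-SK cells had a day 5 summit at 49 of the 57 kept copies (86.0%) and at 68 lost copies. Sox2 in Oct4defSox2-SK cells had a day 5 summit at 5 kept copies (8.77%) and 6 lost copies. Over all kept sites the shares were 67.9% for Oct4 and 9.88% for Sox2. Without the copies the excess of MORE or MORE+1 at kept over lost sites was 27.5 points (23.9 to 31.2). How reads from near-identical copies were placed can affect these sites, and this was not tested.

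Kept sites with no POU motif numbered 338, of which 211 were in the strongest decile. The palindromic 8 bases ATGCGCAT, a word picked out after the kept sites had been seen, were in 38 of these 211 windows (18.01%, interval 13.4 to 23.8%). They were in 110 of 1526 lost windows of the same decile without a POU motif (7.21%, interval 6.02 to 8.62%) and in 0.0983% of the windows flanking those lost sites. Of all day 1 sites with the word and no POU motif, 53 of 475 were kept (11.2%, interval 8.63 to 14.3%). Among the sites of the strongest decile with no POU motif, 25.7% of the 148 with the word were kept and 10.9% of the 1589 without it. The kept sites with the word and the highest day 1 scores lay in introns of Lims1, an adaptor protein of cell adhesions, Stag1, a cohesin subunit, and Sema6d, a semaphorin. They are shown on the plus strand with the word in capitals, and the Lims1 stretch holds it at 2 places.
Intron of Lims1, chr10:58358369-58358404: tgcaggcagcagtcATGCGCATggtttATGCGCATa
Intron of Stag1, chr9:100693553-100693588: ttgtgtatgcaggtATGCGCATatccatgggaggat
Intron of Sema6d, chr2:124640720-124640755: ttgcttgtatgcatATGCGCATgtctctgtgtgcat
In this order they scored 335, 290 and 275 at day 1, and 47.0, 79.4 and 32.8 at day 5. All 3 were also bound by Oct4 at day 5. AP-1 sites were at 18.96% of the 211 strong kept windows and 15.3% of the 1526 strong lost ones, with overlapping intervals (14.2 to 24.8% and 13.6 to 17.2%). Over all sites AP-1 was at 16.2% of kept and 14.2% of lost windows, and single Sox sites (CCNTTGTT) at 5.35% and 7.19%. Strength-matched, the differences were 1.32 points (−1.54 to 4.18) and −2.15 points (−3.94 to −0.35). KLF sites (GGGTGTGGC or GGGCGTGGC) were at 2.19% of kept and 0.936% of lost windows, a difference of 1.26 points (0.41 to 2.60), and of 1.47 points (0.38 to 2.56) when strength-matched.

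Promoters, taken as 1 kb to each side of a coding transcription start, kept their sites more often than the rest of the genome. Of 1236 promoter sites at day 1, 65 were kept (5.26%, interval 4.15 to 6.65%), against 2.22% of 15199 intronic and 2.26% of 13869 intergenic sites. In the strongest decile the promoter share was 41.6% (52 of 125), and the intronic and intergenic shares were 15.7% and 15.8%. Promoters made up 8.92% of kept and 3.86% of lost sites, a difference of 5.06 points (3.18 to 7.36) and of 5.96 points (3.83 to 8.08) when strength-matched. Most kept sites were still far from promoters, 338 in introns and 313 between genes. The median distance to the nearest coding start was 38.7 kb for kept and 62.4 kb for lost sites, and GC content within 100 bp had medians of 41.8% and 38.8%.

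Without matching on score, the motif difference was present within promoters too. MORE or MORE+1 was at 26 of 65 kept promoter sites (40%, interval 28.97 to 52.1%) and at 65 of 1171 lost ones (5.55%, interval 4.38 to 7.01%). AP-1 was at 0 of the kept promoter sites (upper limit 5.58%) and 6.06% of the lost. Both comparisons set mostly strong kept sites against mostly weaker lost ones. The strongest decile held 52 of the 65 kept promoter sites, and 125 of all 1236 promoter sites. Kept promoters with high scores on both days and MORE included Kdm2b, a histone demethylase that recruits Polycomb to CpG islands (390 at day 1 and 139 at day 5), Zmiz2, a transcriptional co-regulator (268 and 97.1), and Polr2a, the largest subunit of RNA polymerase II (171 and 58.7). Acsl3, which activates fatty acids, had no match to a searched motif (180 and 82.0). These 4 were picked from the list of kept promoters after their values had been seen.

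The kept sites with the highest mean score were also called in wild-type cells, most of them with high scores. The site in Sik3, a kinase of the AMPK family, lay 71015 bp from the nearest start. It scored 617 at day 1 and 292 at day 5, and Oct4 in Oct4-SK cells scored 154 at day 1 and 208 at day 5 there (chr9:46083735-46083935). The site 78 bp from a start of Rnf169, a ubiquitin-binding protein of the DNA damage response, scored 532 and 290 (chr7:99980426-99980626), and that 783 bp from a start of Gabarapl2, an autophagy protein, 518 and 260 (chr8:111939820-111940020). The highest day 1 score of all, 664, was in an intron of Sort1, the sorting receptor sortilin, and the score there was 75.02 at day 5 (chr3:108304745-108304945). Its summit base was soft-masked as repetitive in the genome. The Crlf2 promoter, of a cytokine receptor subunit, scored 509 and 194 (chr5:109558417-109558617). All 10 named kept sites had an Oct4 summit in Oct4-SK cells on both days, and none had a Sox2 summit in Oct4defSox2-SK cells on either day.

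The site 579344 bp from Nr2f2, which encodes the nuclear receptor COUP-TFII, scored 580 and 117 for the mutant, while Oct4 scored 67.1 at day 1 and only 4.78 at day 5 (chr7:69781149-69781349). The site 144972 bp from Rap2b, a small GTPase, scored 537 and 142 and was the single one of the 10 without a match to any searched motif (chr3:61216566-61216766). Oct4 S151M scored 37.3 there and between 658 and 1235 at the other 9. The site in Magi2, a scaffold protein of cell junctions, scored 480 and 197 (chr5:20264310-20264510). The site in Macrod1, 38383 bp from Flrt1, a gene for an adhesion protein that lies within it, scored 487 and 163 (chr19:7144012-7144212). The site in Lemd1 scored 417 and 218 (chr1:132222287-132222487).

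The strongest lost sites had no summit at day 5 despite day 1 scores above those of most kept sites. The highest, 222, lay 6675 bp from Sox21, a Sox transcription factor gene of neural progenitors (chr14:118230255-118230455). It had a SoxOct match with 2 mismatches whose first base lay 11 bp before the summit, and a MORE match with 1 mismatch further away. Both are shown on the plus strand, with the match in capitals.
SoxOct near Sox21, chr14:118230332-118230370: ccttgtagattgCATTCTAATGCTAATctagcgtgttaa
MORE near Sox21, chr14:118230249-118230284: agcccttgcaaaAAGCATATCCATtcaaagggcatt
Oct4 in Oct4-SK cells was called at this site on all 3 days profiled, with scores of 77.4, 53.9 and 48.9. The next, 221, was in a UTR exon of St8sia4, a polysialyltransferase, also with SoxOct, and Oct4 scored 121 there at day 1 and 18.3 at day 5 (chr1:95621298-95621498). The third, 205, lay 119934 bp from Sec16b, with Oct4 scores of 87.7 and 51.5 (chr1:157645981-157646181). The remaining 3 had no Oct4 summit at day 5. They were in introns of Immp2l, a mitochondrial peptidase (197, chr12:41085471-41085671), Trhr, the receptor of thyrotropin-releasing hormone (195, chr15:44199170-44199370), and Mmp16, a membrane-bound metalloproteinase (191, chr4:17879044-17879244). The Mmp16 site held an exact MORE. Of the 100 strongest day 1 sites 8 were lost, and 3 of these 8 had SoxOct.

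New sites were weaker than kept sites and held POU motifs less often. MORE or MORE+1 was at 34 of 305 new sites (11.1%, interval 8.09 to 15.2%), against 42.1% of kept sites scored at their day 5 summits, a difference of −31.0 points (−35.7 to −25.6). Lost sites held it in 10.3% of cases (interval 9.92 to 10.6%), which lies within the interval of the new sites. SoxOct was at 6 new sites (1.97%, interval 0.905 to 4.22%), where the flanking windows held it in 1.15%. The octamer was at 4.59%, AP-1 at 3.93% with 3.11% in the flanking windows, and KLF sites at 0 of 305 (upper limit 1.24%), against 2.06% of kept sites at their day 5 summits. Promoters made up 2.95% of new sites and 8.78% of kept sites at day 5, a difference of −5.83 points (−8.50 to −2.67). With scores of at least 10 both differences had intervals that included 0, at −16.1 points (−30.1 to 1.32) for MORE and −7.24 points (−11.2 to 4.99) for promoters. With promoters taken as 5 kb to each side the promoter difference was −1.19 points (−5.81 to 3.95).

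The named new sites had day 5 scores from 16.8 to 32.8. The highest lay 156481 bp from Actbl2, an actin-like gene (chr13:111098432-111098632), and it had an Oct4 summit at day 5 with a score of 9.09. The second, 20.8, was in an intron of Ankrd46 (chr15:36490031-36490231), and the third, 18.7, lay 263103 bp from Stmn2, a neuronal regulator of microtubules (chr3:8246157-8246357). The Stmn2 site had an Oct4 summit at day 1 with a score of 28.3. Only 2 of the 8 had a POU motif. The site in an intron of Il3ra, the alpha subunit of the interleukin-3 receptor, held an octamer (score 17.1, chr14:14352599-14352799), and the site 34816 bp from Cops2, a COP9 signalosome subunit, held MORE with 1 mismatch (score 17.0, chr2:125824123-125824323). The Il3ra site had Oct4 scores of 6.92 at day 1 and 12.6 at day 5, and an Oct4 S151M score of 31.4 at day 1. The Cops2 site was bound by Oct4 at day 5 and by Oct4 S151M at day 1 (score 600).

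Most sites kept by the mutant were also bound by wild-type Oct4. Oct4 in Oct4-SK cells had a day 5 summit at 495 of 729 kept sites (67.9%, interval 64.4 to 71.2%), at 7.12% of lost sites and at 6.23% of new sites. The difference between kept and lost was 60.8 points (57.3 to 64.1), 43.3 points strength-matched and 32.9 points with the finer bands. Oct4 at day 1 was at 54.6% of kept and 14.2% of lost sites, and at day 7 at 30.9% and 4.26%. For day 1 the difference of 40.4 points shrank to 8.95 (5.08 to 12.8) when strength-matched, and for day 7 from 26.6 to 17.2 points (13.7 to 20.8). Oct4 S151M at day 1, from a list of 101151 summits, was at 81.5% of kept, 42.5% of lost and 8.52% of new sites, and its difference between kept and lost went from 38.9 to 6.47 points (3.47 to 9.48) when strength-matched.

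Sox2 in the same cells was less common at kept than at lost sites at the sharing distance used. In Oct4defSox2-SK cells it had a day 5 summit at 72 kept sites (9.88%, interval 7.92 to 12.3%) and 3979 lost sites (13.1%, interval 12.7 to 13.5%). The difference was −3.24 points (−5.24 to −0.83) and −5.87 points (−8.27 to −3.47) when strength-matched, and it was 0.66 points (−2.01 to 3.64) with a sharing distance of 250 bp. It was −1.70 points (−3.36 to 0.50) at 50 bp and −0.65 points (−2.22 to 1.28) with each list cut to its strongest 1034 summits, and the interval included 0 in all 3 of these settings. At day 1 Sox2 was at 5.49% of kept and 8.81% of lost sites. In Oct4-SK cells Sox2 at day 1 was also less common at kept sites, 10.01% against 12.8% of lost. The difference was −2.79 points (−4.80 to −0.36), and −16.8 points (−19.4 to −14.3) when strength-matched. At day 5 Sox2 in Oct4-SK cells was slightly more common at kept sites, 7.82% against 5.64% of lost. That difference of 2.17 points (0.42 to 4.37) was −4.33 points (−6.51 to −2.16) when strength-matched. These shares depend on the lengths of the Sox2 lists. They held 15219 sites at day 1 and 5793 at day 5 in Oct4-SK cells, and 5793 and 21551 in Oct4defSox2-SK cells. Day 1 sites with Sox2 at both days were kept in 19 of 1167 cases (1.63%, interval 1.04 to 2.53%), although their median score of 18.1 was above the 11.1 of sites with Sox2 at neither day, of which 2.50% were kept (2.31 to 2.70%). In the strongest decile 7.28% of sites with Sox2 at both days were kept (15 of 206, interval 4.46 to 11.7%) and 18.5% of those with neither (453 of 2446, interval 17.03 to 20.1%). With Sox2 at day 1 only the share there was 6.90% (16 of 232, interval 4.29 to 10.9%). With Sox2 at day 5 only it was 16.9% (45 of 267, interval 12.8 to 21.8%), which overlaps that of sites with neither.

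**Figure D4:**
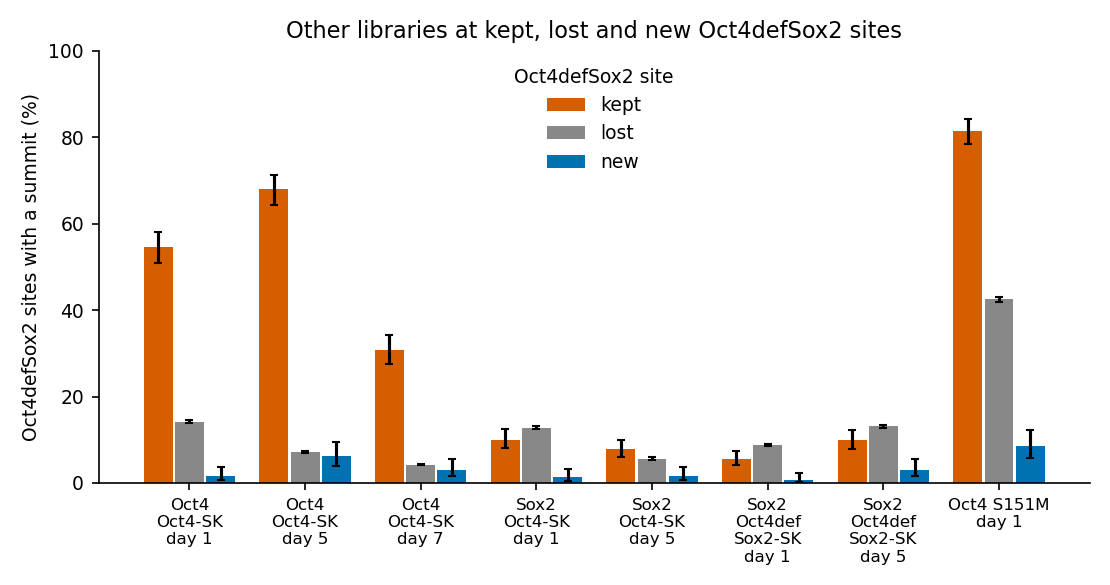
Share of kept (729), lost (30331) and new (305) Oct4defSox2 sites with a summit of another library within 100 bp (y axis, percent), by antibody target, cells and day (x axis). Bars are shares with 95% Wilson intervals; Oct4 at day 5 was at 67.9% of kept and 7.12% of lost sites.

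Oct4 itself kept 24.5% of its 8199 day 1 sites (2012, interval 23.6 to 25.5%), 22.2 points (21.3 to 23.1) more than the mutant. When each list was cut to its strongest 1034 summits the difference was 0.87 points (−3.28 to 5.02). This cut changes both the length of the lists and the strength of the sites in them. The motifs of the sites can be compared within the same lists. At day 1, 4708 mutant sites were also bound by Oct4 in Oct4-SK cells. Among 826 of these with MORE or MORE+1 and no SoxOct, 48.1% (44.7 to 51.5%) had an Oct4 summit and 22.8% (20.03 to 25.7%) a mutant summit at day 5. Among 598 with SoxOct and no MORE form, 55.02% (51.01 to 58.96%) had an Oct4 summit and 5.18% (3.68 to 7.26%) a mutant one.

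Restricted to common sites that Oct4 still held at day 5, the mutant was present at 166 of 397 MORE sites (41.8%, interval 37.1 to 46.7%) and at 30 of 329 SoxOct sites (9.12%, interval 6.46 to 12.7%). The difference was 32.7 points (26.7 to 38.3), and 26.0 points (19.1 to 32.8) when SoxOct sites were reweighted to the finer day 1 score bands of the MORE sites. This restriction was chosen after seeing the data. Octamer sites lay between, at 23.5% of 81 (interval 15.6 to 33.8%). Binding at day 5 by the mutant alone was rare in each class, with 22 MORE sites and 1 SoxOct site. Of all lost SoxOct sites, whether common or not, Oct4 was at 26.9% at day 5 and 25.6% at day 7. For lost MORE sites these shares were 11.003% and 3.84%.

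**Figure D5:**
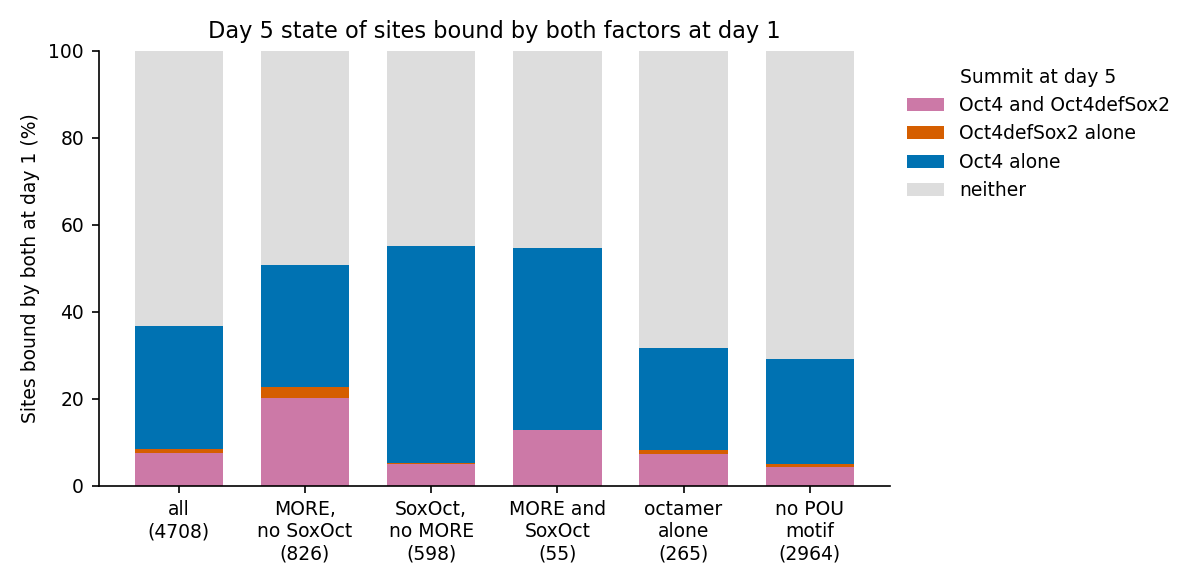
Day 5 state of the 4708 day 1 sites bound by both Oct4 in Oct4-SK and Oct4defSox2 in Oct4defSox2-SK cells (y axis, percent of sites), by POU motif with the number of sites in brackets (x axis). Colours give which factor had a summit at day 5; Oct4 alone held 50.0% of SoxOct sites and 28.0% of MORE sites.

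Few coding genes had a kept site nearby, whether or not they were among the listed genes of reprogramming. Of 21827 coding genes, 56.4% had a day 1 site within 50 kb of a start, 3.78% a kept site and 1.42% a new one. Of 30 genes of naive pluripotency 22 had a day 1 site and 2 a kept site, and 0 had a new one. Both were genes of enzymes that oxidise methylcytosine. The Tet2 site lay 4 bp from a start, held MORE with 1 mismatch and scored 249 at day 1 and 183 at day 5. The Tet1 site lay in an intron, 14664 bp from a start, with scores of 102 and 35.1. Both were bound by Oct4 at day 5. The sites nearest to starts of Pou5f1, the Oct4 gene, and Sox2 had day 1 scores of 9.86 and 8.25 and were not kept.

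The other lists held 6 genes with a kept site. Of 24 mesenchymal genes 16 had a day 1 site, and only Col1a2, a collagen gene, had a kept one, which was weak on both days (6.41 and 6.73). Of 22 epithelial genes 14 had a day 1 site and of 23 TGF-beta genes 13, and in both lists 0 had a kept site (upper limits 14.9% and 14.3%). Of 13 AP-1 genes, Jund had a promoter site with an octamer (94.7 and 23.7). Of 26 POU and Sox genes, Pou6f1 had a site 99 bp from a start (179 and 23.7), and Sox9 one 29048 bp away with an exact SoxOct (149 and 11.6). Of 16 neural genes, Hes5, a Notch target, had a site at 3149 bp that lies in the promoter of Pank4 (163 and 10.7), and Zic1 an exact MORE at 9951 bp (35.4 and 12.8). The single new site near a listed gene was 6043 bp from Tubb3, a neuronal tubulin (4.16). With so few genes, shares from 0 to 12.5% cannot be set apart from the 3.78% of all coding genes at this number of sites.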

How the data were processed

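Summit lists of 10 ChIP-seq libraries were used, with the members and gene lists chosen with earlier results of these data known. The authors aligned paired-end reads to mm10 with Bowtie2 2.2.5, filtered them by mapping quality, removed duplicates with SAMtools and called peaks per library with MACS2, allowing several summits per peak. The deposited score is the −log10 of the p-value at a summit, neither adjusted nor scaled between libraries, and was used to rank or bin sites within a library and, averaged over both days, to choose the named kept sites. The other 3 lists and the inputs were not used here. Reads were not analysed, and read depth was not used here.

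Groups came from the sample titles, with 1 library each, so no p-value was computed. Coordinates were checked against GRCm38, and 0 summits lay past a chromosome end. Off the chromosomes used lay 10 summits at day 1 and 4 at day 5, left out here. Sites were placed with the GENCODE M21 basic annotation. Motifs were matched as strings on both strands within 100 bp of a summit. SoxOct contains the octamer, and MORE and MORE+1 share half-sites, so a window can count for several. The study scanned with weight matrices, which were not used here. Flanking windows were centred 2 kb to either side.

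Named sites, at most 1 per 10 kb, were the 10 kept with the highest mean score, the 6 lost and the 8 new with the highest score, and each listed gene with a day 5 summit within 50 kb. A further few sites are named as picked after their values were seen. The 7 gene lists held 154 genes. Alternatives were sharing distances of 50 and 250 bp, a minimum score of 10, lists cut to the same length, 1 summit per peak, stricter and looser motifs, motif windows of 50 bp, a promoter distance of 5 kb and matching by score decile. Python 3.11.15, numpy 2.4.6, scipy 1.17.1 and matplotlib 3.10.9 were used. Tested on simulated data, all 800 planted motifs and 1013 planted shared sites were found.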

Additional observations from a re-analysis of the deposited data

How the results depend on the processing

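Of 89 alternatives of the 9 differences, 75 kept both their direction and the side of 0 on which their interval lay. The retention of MORE over SoxOct sites, the MORE and promoter excess at kept over lost sites, and the Oct4 day 5 excess did so in all alternatives run. With sharing within 50 bp, 1.99% of day 1 sites were kept, 59.8% of day 5 sites were present at day 1, and the Sox2 difference was −1.70 points with an interval that included 0. Within 250 bp, 73.9% of day 5 sites were present at day 1 and the Sox2 difference reversed to 0.66 points. With scores of at least 10, 93.0% of day 5 sites were present at day 1, the SoxOct difference between kept and lost reversed to −1.15 points, and new minus kept was −7.24 points for promoters and −16.1 for MORE, both with intervals that included 0. With equal numbers of the strongest summits both shares were 36.4%, SoxOct reversed to −10.4 points, and the Sox2 difference (−0.65) and that between Oct4 and the mutant (0.87) included 0. SoxOct was 1.15 points with strict motifs and 1.73 with windows of 50 bp, both with intervals above 0, and reversed to −2.25 with loose motifs and to −5.67 with score deciles matched. A promoter distance of 5 kb gave −1.19 points for new minus kept, an interval that included 0. The causes were not tested. Alternatives added after the data had been seen left out the repeated sequence, which gave 2.18% kept, left out soft-masked summits, which changed no call, or matched finer score bands, which reversed SoxOct to −9.38 points. Leaving out the repeated sequence or soft-masked summits changed the mutant sites only, and the Oct4 share stayed that of all its sites. These alternatives, though counted above, therefore do not check the difference in retention between Oct4 and the mutant. No paired analysis was possible because each group had 1 library, whose replicate number is only a name. Precision is limited by 1034 sites at day 5, 305 of them new, and by the read depth of both libraries, which was not used here.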

Other observations

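Kept sites were spread over the genome. On the autosomes the share of day 1 sites kept ran from 1.15% on chromosome 16 (16 of 1395, interval 0.707 to 1.86%) to 3.34% on chromosome 7 (44 of 1319, interval 2.49 to 4.45%), and on the X chromosome it was 1.43% (12 of 838). Within 50 kb, the kept sites were nearest to the starts of 390 coding genes, and only 10 of these genes had more than 1 kept site. Each of the 10 had 2, among them Eed, a core subunit of Polycomb repressive complex 2, Ankrd11, a chromatin regulator, and Pde4d, a cAMP phosphodiesterase with 23 day 1 sites. Of all kept sites 54.9% lay within 50 kb of a coding start, and of lost sites 45.0%.

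Among strong sites with no POU motif, matches to ACATTCC, the site of TEAD factors, were at 16 of 211 kept windows (7.58%, interval 4.72 to 11.96%) and at 56 of 1526 lost windows (3.67%, interval 2.84 to 4.74%). These intervals overlap slightly. Over all sites TEAD was at 4.66% of kept and 4.42% of lost windows. No hypothesis was tested on these values.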
